A study of Mus musculus with 35 samples.

Results

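The 38 genes described here encode lysosomal hydrolases and lysosomal membrane proteins of the mouse, and they were taken as a fixed list by function: glycosidases, sulfatases, proteins whose loss causes neuronal ceroid lipofuscinosis, transporters and membrane glycoproteins, with the cathepsins, the sphingolipid hydrolases and the V-ATPase subunits left out. All 38 were among the 32285 genes of the nuclei matrices, and the rule that chose them uses no measured value. They were followed in the hippocampus of C57BL/6 mice, by single-nucleus RNA-seq of 14 libraries and by bulk RNA-seq of 21 libraries. The nuclei came from animals of 9 months in 4 groups: 3 libraries of wild type (WT), 3 of PS19, 4 of CLEAR mutants (CLEAR) and 4 of the cross of both (CLEAR_PS19), with 1 female library in each group and males otherwise. The bulk libraries held WT and PS19 hippocampus at 9 months (n = 5 and n = 4) and at 4 months (n = 6 and n = 6), with no sex given in the labels. PS19 mice carry a transgene for mutant human tau under the prion protein promoter, which is active in neurons and in other cells. The CLEAR mutants carry a changed CLEAR element, the DNA motif bound by the transcription factor TFEB, at Atp6v1h, the gene of a V-ATPase subunit. Nothing in the labels says that replicates were separate animals, so the p-values measure the spread between these libraries.

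Lysosomes break down material delivered by endocytosis and autophagy. Soluble hydrolases work inside them at acid pH, and heavily glycosylated membrane proteins such as LAMP1 and LAMP2 line the limiting membrane, in which dedicated transporters and channels move products and ions. Many of these genes carry CLEAR elements and respond to TFEB and its relatives when lysosomal demand rises. In the brain, inherited loss of single members causes storage disease with early neuronal damage, and in microglia, the resident phagocytes, lysosomal genes rise with activation.

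The nuclei libraries held 39939864 to 83579886 UMIs after filtering, in 132322 nuclei, and the bulk libraries held 9630430 to 17182605 gene-assigned counts. Nuclei were grouped into 7 classes used below, and 15816 nuclei (12%) stayed in clusters without a name. Levels are in CPM, which are counts scaled to the same total in every library. The targeted gene Atp6v1h stood at 107 ± 9.12 CPM (SD, n = 3) in all nuclei of WT and 56.3 ± 1.77 CPM (SD, n = 4) in CLEAR libraries, and Prnp, whose promoter and flanking sequence the transgene uses, at 922 and 2125 CPM in WT and PS19 bulk hippocampus at 9 months. The nuclei libraries were divided into 3 sets by clustering their granule neuron profiles, with the number of sets fixed at 3. The sets were the 4 females, a set of 4 males and the remaining 6 males. Those 4 males are replicates 1 and 2 of both CLEAR groups, called set 3 below. Within set 3, CLEAR replicates 1 and 2 differed by a chi-square of 3.79 per gene and CLEAR_PS19 replicates 1 and 2 by 4.96, against 39.7 to 123 for every other pair of one group. Set 3 has no WT or PS19 library. The counts for the CLEAR mutation, and its leading values over all nuclei and in microglia, are therefore also given without it.

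TFEB binds the letters CACGTG, which read the same on both strands and form the core of the CLEAR element. Promoter windows from 250 bases before to 50 bases after the start were found in RefSeq (GRCm38.p6) for 34 of the 38 genes. CACGTG occurred in the windows of 9 of these 34 genes (26.5%), against 8.09% of all 27025 genes with a window. The longer TCACGTGA, which contains it, occurred in 3 (8.82%) against 1.12%. In the neighbouring lysosomal groups, 4 of 9 cathepsins (44.4%), 4 of 13 V-ATPase genes (30.8%) and 2 of 7 sphingolipid genes (28.6%) held CACGTG. Of TFEB and its relatives 0 of 4 did. A stretch of the window is shown for Lamp1, which holds 4 copies, and 1 site each for the other 8 holders, 5′ to 3′ on the strand of the gene and with the motif in capitals.

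Lamp1 (chr8:13159093-13159158, plus strand): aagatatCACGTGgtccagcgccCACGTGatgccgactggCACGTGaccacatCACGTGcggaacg

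Sumf1 (chr6:108185582-108185601, minus strand): cacaggtCACGTGatctcca

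Cln3 (chr7:126583345-126583364, minus strand): gtactgtCACGTGaccccca

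Clcn7 (chr17:25133391-25133410, plus strand): gatagatCACGTGagacctg

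Naglu (chr11:101070014-101070033, plus strand): ttcaggtCACGTGgcccgag

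Gaa (chr11:119267816-119267835, plus strand): gtgcgatCACGTGtttgact

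Sgsh (chr11:119355527-119355546, minus strand): tgccgtgCACGTGaccgtgg

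Lgmn (chr12:102439129-102439148, minus strand): tgtctgtCACGTGgtccatt

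Arsa (chr15:89477428-89477447, minus strand): tcagtgtCACGTGttgtctg

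The 3 genes with TCACGTGA were Sumf1, Cln3 and Clcn7, each at the site shown. Laptm5, Cd68, Grn, Man2b1 and Gusb, which had the largest increases in bulk PS19 hippocampus below, held no CACGTG in their windows. Of the 9 holders 4 rose in bulk PS19 hippocampus at 9 months, where 7.68% of all genes rose, with a median log2 difference of 0.25, and of the 25 other genes with a window 12 rose, with a median of 0.30. A match describes the letters of the window and not the binding of a factor.

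In nuclei the 38 genes were concentrated in microglia. Their summed level in WT libraries was 4456 ± 315 CPM (SD, n = 3) in microglia, 1568 ± 33.2 in oligodendrocytes, 1394 ± 70.5 in astrocytes and 1159 ± 42.9 in oligodendrocyte precursor cells (OPC), against 1041 ± 25.9 in granule neurons, 972 ± 37.7 in the remaining excitatory neurons and 982 ± 21.5 in inhibitory ones. By WT mean, 24 of the 38 genes were highest in microglia, 4 each in astrocytes and oligodendrocytes, 3 in inhibitory neurons and 1 each in OPC, granule neurons and other excitatory neurons. For 18 of those 24, every WT microglia value lay above every WT value of the next class. Of the 22080 genes tested over all nuclei 31.7% were highest in microglia and 15.5% without overlap, against 63.2% and 47.4% of the 38. The classes were built from the same nuclei, so these differences are a description with no test. Microglia nuclei were the shallowest of these 7 classes, with a median of 1785 UMIs, against 2203 in oligodendrocytes and 11190 in other excitatory neurons.

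**Figure D1:**
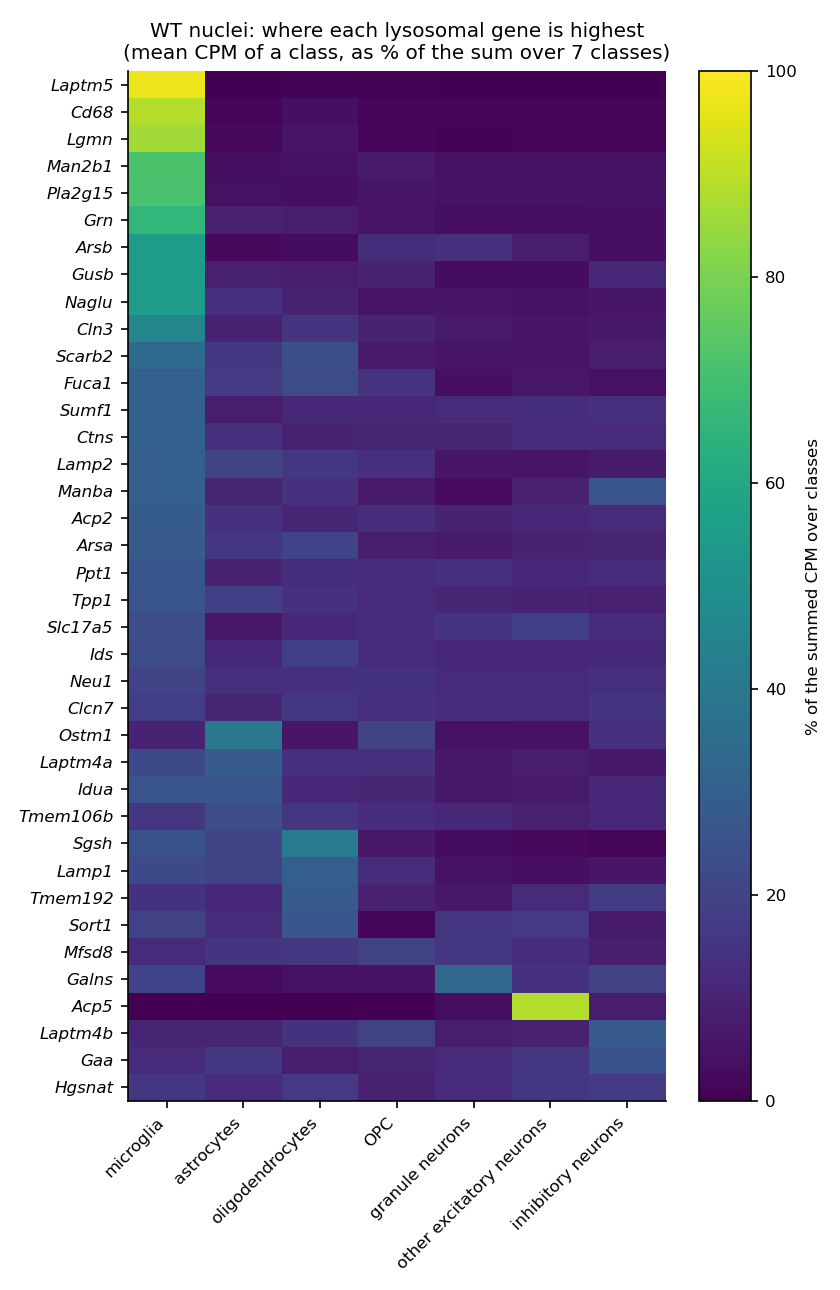
Share of each of the 38 genes in 7 classes of nuclei. The share is the mean CPM of a class (WT libraries, n = 3) as a percentage of the sum over the 7 classes. Genes are ordered by the class with the highest share and then by that share. The microglia column holds the highest value for 24 of the 38 genes.

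Among the glycosidases, Man2b1, the lysosomal alpha-mannosidase that trims N-glycans, stood at 255 ± 66.5 CPM (SD, n = 3) in WT microglia and at 12.9 to 25.7 CPM in the other 6 classes. Gusb, the beta-glucuronidase, stood at 88.4 ± 9.54 CPM in microglia, with inhibitory neurons next at 18.4, and Naglu, which removes N-acetylglucosamine from heparan sulfate, at 24.2 ± 4.2 with astrocytes next at 5.92. Those 3 did not overlap between microglia and the next class. Manba, the beta-mannosidase, was shared: WT microglia at 75.5 ± 9.18 overlapped inhibitory neurons at 64.7 ± 8.93 CPM, while granule neurons held 7.36. Fuca1, the alpha-fucosidase, was also shared between microglia (65.3 CPM) and oligodendrocytes (48.1 CPM), and Neu1, the sialidase, lay between 14.2 and 24.3 CPM in every class. Gaa, the acid alpha-glucosidase that degrades glycogen, was highest in inhibitory neurons in all 14 libraries, at 40.4 ± 0.644 CPM in WT. Idua, which cuts iduronic acid from dermatan and heparan sulfate, was near equal in astrocytes (20.7 CPM) and microglia (19.98 CPM), with overlapping values.

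The sulfatases were spread over several classes. Arsb, which desulfates dermatan and chondroitin sulfate, reached 924 ± 339 CPM in WT microglia, with 226 in granule neurons and 219.5 in OPC. Galns, the sulfatase of keratan sulfate, was highest in granule neurons in all 14 libraries, at 24.8 ± 2.04 CPM in WT against 10.6 in the other excitatory neurons and 2.07 in astrocytes. Sgsh, the sulfamidase of heparan sulfate, was highest in oligodendrocytes at 3.24 ± 0.199 CPM and under 1 CPM in OPC and the neuron classes. Sumf1, the enzyme that activates the sulfatases, stood at 57.4 ± 10.2 CPM in microglia and between 15.3 and 25.3 elsewhere. Ids (12.2 to 24.6 CPM), the iduronate sulfatase, Arsa (3.74 to 15.3 CPM), the sulfatase of sulfatide, and Hgsnat (16.1 to 30.8 CPM), the membrane acetyltransferase for heparan sulfate, overlapped between their first and second class.

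Of the remaining soluble enzymes, Lgmn, the asparaginyl endopeptidase legumain, was the most restricted: WT microglia held 843 ± 17.2 CPM, oligodendrocytes 52.1 and granule neurons 8.87. Pla2g15, a phospholipase, stood at 100.2 ± 19.2 CPM in microglia and at 5.57 to 7.99 elsewhere. Ppt1, the palmitoyl-protein thioesterase, and Tpp1, the tripeptidyl peptidase, both mutated in neuronal ceroid lipofuscinosis, stood at 171 ± 19.6 and 43.9 ± 3.51 CPM in microglia; Ppt1 held 60.6 to 89.7 CPM in every other class. The acid phosphatase Acp2 stood at 53.1 ± 7.57 CPM in microglia and 18.2 to 26 elsewhere. Acp5, the tartrate-resistant phosphatase, was highest in other excitatory neurons, at 0.663 ± 0.282 CPM.

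Of the transporters, Cln3, the endolysosomal membrane protein of juvenile ceroid lipofuscinosis, was highest in microglia (72.7 ± 10.8 CPM), followed by oligodendrocytes at 24.3. Ctns, the cystine exporter, and Slc17a5, the sialic acid exporter, stood at 38.8 ± 1.89 and 71.9 ± 7.39 CPM in microglia, with Slc17a5 at 56.1 in other excitatory neurons. Clcn7, the lysosomal chloride-proton exchanger, varied little, from 16.4 to 28.8 CPM. Its partner Ostm1, the beta subunit that Clcn7 needs for stability, did not share that pattern: it was highest in astrocytes in all 14 libraries, at 121 ± 37.8 CPM against 61.6 in OPC and 29.2 in microglia. Mfsd8, the transporter mutated in late infantile ceroid lipofuscinosis, ranged from 14.5 to 34 CPM.

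Laptm5, a lysosomal membrane protein of blood-lineage cells, had the sharpest class difference of the set, with 245 ± 13.8 CPM in WT microglia and 2.6 CPM in the next class, oligodendrocytes, a ratio of 94.2. Cd68, the macrophage glycoprotein macrosialin, followed at 52.7 ± 10.6 against 2.4 CPM, a ratio of 21.9. Grn, which encodes progranulin, the precursor of the lysosomal granulins, stood at 75.3 ± 10.2 CPM in microglia and 10.3 in astrocytes. The general membrane glycoproteins were spread over all glia: Lamp1 reached 204 ± 10.3 CPM in oligodendrocytes, 150.3 in microglia and 139 in astrocytes against 28.5 to 40.1 in neurons, and Lamp2 252 ± 10.8 in microglia and 169.6 in astrocytes against 46.2 to 61.4 in neurons. Scarb2, the receptor that carries glucocerebrosidase to lysosomes, stood at 164 ± 24.7 CPM in microglia and 114 in oligodendrocytes. Sort1, the sorting receptor that also takes up progranulin, was highest in oligodendrocytes (310.1 ± 51 CPM) and lowest in OPC (21.7 CPM). Laptm4a was highest in astrocytes (137 CPM) and its paralog Laptm4b in inhibitory neurons (57.8 CPM), each in all 14 libraries. Tmem192, a lysosomal membrane protein, peaked in oligodendrocytes (32.8 CPM) and Tmem106b, a regulator of lysosome size and transport, in astrocytes (53.9 CPM).

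Per kilobase of exon, the highest levels in bulk WT hippocampus at 9 months were those of Ids at 129.8 ± 3.49 CPM per kb (SD, n = 5), Laptm4a at 124 ± 9.71, Lamp1 at 103 ± 1.26, Sort1 at 103 ± 7.49 and Gaa at 87.9 ± 11.7. Ids and Laptm4a do not differ beyond their spread, nor do Lamp1 and Sort1. Of the genes highest in microglia nuclei, Lgmn stood at 41.4, Grn at 15.3 ± 0.73, Laptm5 at 9.36 ± 0.606 and Cd68 at 5.6 ± 0.887 CPM per kb. Acp5, at 0.414 ± 0.188 CPM per kb, was the lowest of the 38.

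The first comparison asks how tau pathology changes these genes in whole hippocampus. At 9 months 17 of the 38 genes rose in PS19 libraries and none fell, at an edgeR adjusted p under 0.05 over all genes; over all 16133 genes tested 7.68% rose and 5.09% fell, 12.8% together. The median log2 difference of the 38 was 0.25, against -0.01 over all genes, and 32 of the 38 lay above 0, against 48.2% of all genes. By role, 5 of 8 glycosidases rose, 2 of 7 in the sulfatase group, 3 of 6 among the proteases, thioesterase, lipase and phosphatases, none of the 6 transporters and channels, and 6 of 10 membrane proteins, besides Grn. The increases were led by genes that the nuclei place in microglia.

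**Figure D2:**
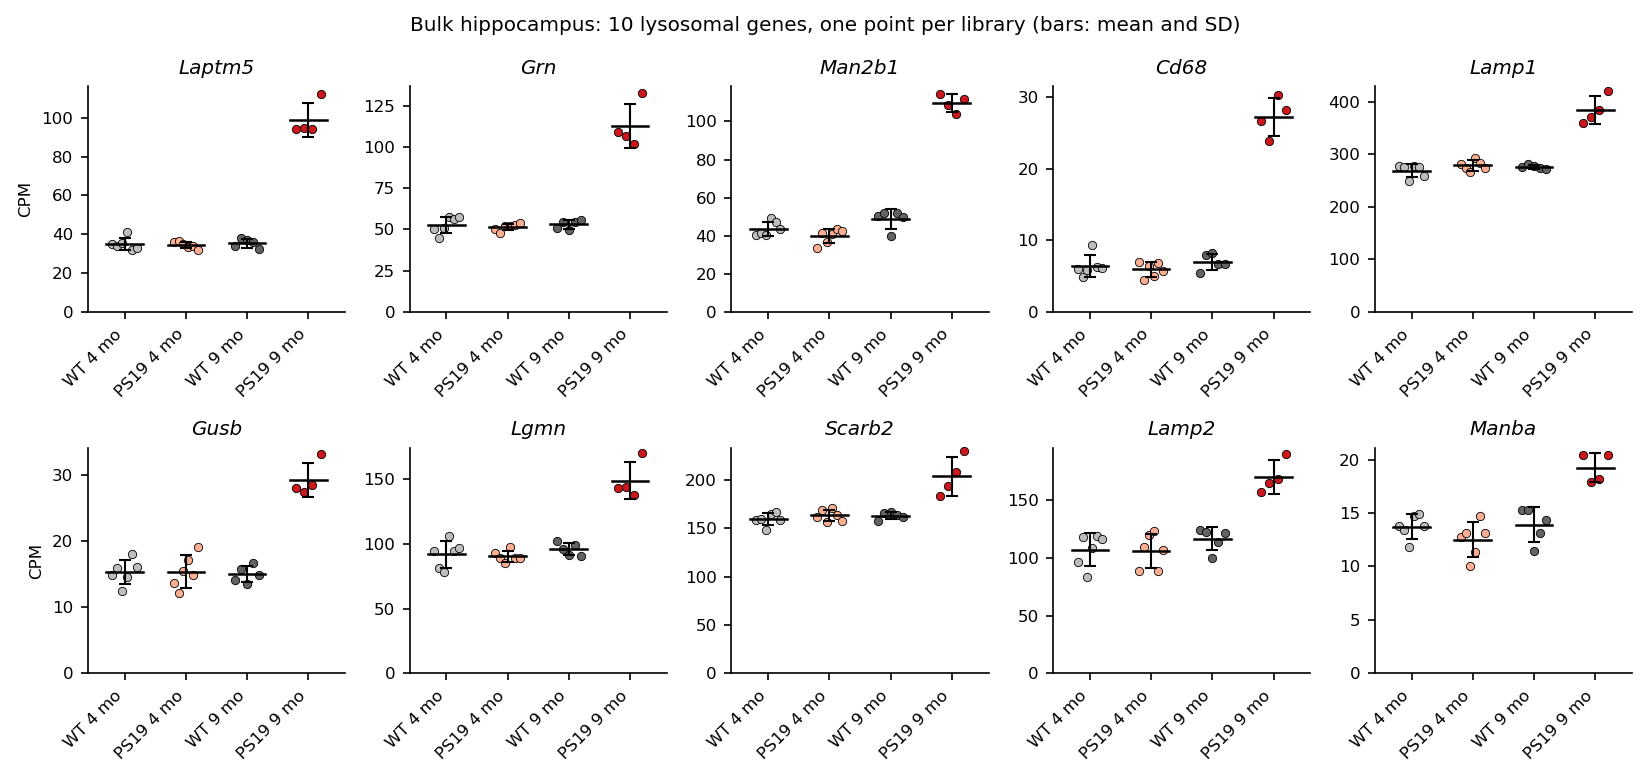
Level in CPM of the 10 genes with the smallest p in bulk hippocampus at 9 months. Each point is 1 library, with the group mean and SD. The groups are WT and PS19 at 4 months (n = 6 and n = 6) and at 9 months (n = 5 and n = 4). At 9 months every PS19 point of Laptm5, Cd68, Grn and Man2b1 lies above every WT point of that age.

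Laptm5 (ENSMUSG00000028581, chromosome 4, 130913125 to 130936141 in mm10) had the smallest p. It read 33.8, 38, 37.1, 36 and 32.5 CPM in the 5 WT libraries and 94.2, 94.7, 94.5 and 112 CPM in the 4 PS19 libraries at 9 months. The groups were far apart, and the log2 difference was 1.48 ± 0.07 (SE), with an edgeR adjusted p of 4.3e-12. Cd68 (ENSMUSG00000018774, chromosome 11, 69664213 to 69666153) read 5.48, 7.91, 8.3, 6.75 and 6.75 CPM in WT and 26.7, 23.9, 30.3 and 28.2 CPM in PS19 libraries. It had the largest change of the 38, with every PS19 library above every WT library and a log2 difference of 1.95 ± 0.15 (SE), with an edgeR adjusted p of 5.7e-09. Grn (ENSMUSG00000034708, chromosome 11, 102430315 to 102437048) read 51, 54.8, 49.9, 54.3 and 55.6 CPM in WT and 109, 107, 102 and 133 CPM in PS19 libraries, again without overlap. Its log2 difference was 1.09 ± 0.07 (SE), with an edgeR adjusted p of 7.0e-10.

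Of the glycosidases, Man2b1 (ENSMUSG00000005142, chromosome 8, 85083270 to 85098282) rose most, from 50.1, 52.1, 39.7, 52 and 49.8 CPM in WT to 115, 109, 104 and 112 CPM in PS19 libraries. No library of one group reached the other, and the log2 difference was 1.17 ± 0.08 (SE), with an edgeR adjusted p of 1.1e-09. Gusb (ENSMUSG00000025534, chromosome 5, 129989011 to 130003049) read 14.1, 15.7, 13.6, 16.7 and 15 CPM in WT and 28.1, 27.4, 28.5 and 33.1 CPM in PS19. It too rose without overlap, by a log2 difference of 0.96 ± 0.11 (SE), with an edgeR adjusted p of 2.0e-06. Manba (ENSMUSG00000028164, chromosome 3, 135485611 to 135571404) read 15.3, 15.2, 11.4, 13.1 and 14.4 CPM in WT and 20.4, 17.9, 18.2 and 20.4 CPM in PS19. The gap between its groups was small, and the log2 difference was 0.47 ± 0.10 (SE), with an edgeR adjusted p of 0.0033. Naglu and Fuca1 rose by 0.51 (adjusted p = 0.017) and 0.33 (adjusted p = 0.017) on the log2 scale. Neu1, Idua and Gaa did not pass the test, at -0.06 (adjusted p = 0.57), 0.27 (adjusted p = 0.23) and -0.19 (adjusted p = 0.29).

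In the sulfatase group the changes were small. Galns, at 5.72 to 10.3 CPM in WT and 10.9 to 12.2 CPM in PS19 libraries, rose by 0.43 (adjusted p = 0.039) on the log2 scale, and Sumf1 by 0.25 (adjusted p = 0.026). Ids, the iduronate sulfatase, stood at 642 to 684 CPM in WT and 579 to 657 CPM in PS19 libraries, with a log2 difference of -0.12 (adjusted p = 0.12). Sgsh, Arsa, Arsb and Hgsnat lay between 0.08 and 0.26 and did not pass.

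Lgmn (ENSMUSG00000021190, chromosome 12, 102394084 to 102439813) led the other soluble enzymes, with 102, 96.5, 91.8, 99.1 and 90.6 CPM in WT and 143, 144, 138 and 170.0 CPM in PS19 libraries. The PS19 values were all higher, and the log2 difference was 0.63 ± 0.07 (SE), with an edgeR adjusted p of 2.3e-06. Ppt1 lay at 96.8 to 127 CPM in WT and 141 to 149.6 CPM in PS19 libraries and rose by a log2 difference of 0.39 (adjusted p = 0.0049). Tpp1 lay at 89.2 to 102 CPM in WT and 119 to 128 CPM in PS19 libraries, a rise by a log2 difference of 0.31 (adjusted p = 0.014). Pla2g15, a gene of microglia in the nuclei, missed the threshold at 0.30 (adjusted p = 0.059). Acp2 was at 0.02 (adjusted p = 0.84) with a 95% interval of -0.08 to 0.12, and Acp5, near 1 CPM, at 0.03 (adjusted p = 0.98).

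No transporter or channel passed. Their log2 differences were -0.21 for Mfsd8, 0.02 for Ctns, 0.04 for Clcn7, 0.09 for Slc17a5, 0.11 for Ostm1 and 0.20 for Cln3. For Clcn7 the 95% interval was -0.07 to 0.16. Mfsd8 came nearest to the threshold, with an edgeR adjusted p of 0.074.

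Among the membrane glycoproteins, Lamp1 (ENSMUSG00000031447, chromosome 8, 13159161 to 13175338) read 276, 282, 277, 274 and 273 CPM in WT and 359, 372, 385 and 422 CPM in PS19. The groups were far apart, with a log2 difference of 0.48 ± 0.05 (SE), with an edgeR adjusted p of 1.3e-07. Lamp2 (ENSMUSG00000016534, chromosome X, 38401357 to 38456454) read 125, 122, 100.1, 114 and 122 CPM in WT and 157, 165, 169 and 190.4 CPM in PS19. PS19 replicate 5 was the highest, and the log2 difference was 0.55 ± 0.11 (SE), with an edgeR adjusted p of 0.0011. Scarb2 (ENSMUSG00000029426, chromosome 5, 92441314 to 92506833) read 157, 166, 167, 163 and 161 CPM in WT and 183, 193, 209 and 229 CPM in PS19. It rose without overlap by 0.32 ± 0.05 (SE), with an edgeR adjusted p of 0.00018. Laptm4a rose by 0.32 (adjusted p = 0.0044) on the log2 scale, while Laptm4b stood at 0.17 (adjusted p = 0.097) and Tmem192 at 0.23 (adjusted p = 0.17). Sort1, at 705 to 863 CPM in WT and 717 to 788 CPM in PS19, and Tmem106b were near 0, at -0.06 (adjusted p = 0.56) and -0.04 (adjusted p = 0.66). Without PS19 replicate 5 at 9 months the count of risen members was 12, and Fuca1, Naglu, Tpp1, Galns and Sumf1 were no longer called. The share of all genes called without that library is not given here, so whether the drop is particular to the members cannot be told. Galns was also lost without WT replicate 2 or 3 or PS19 replicate 1 or 4, with a replicate block (adjusted p = 0.072), without the filter on low counts (adjusted p = 0.057) and without the bulk libraries whose Ttr, a choroid plexus gene, is under 1000 CPM (adjusted p = 0.097). At 9 months Ttr was 588 CPM in WT replicate 3 and 3983 to 5412 CPM in the other libraries. Sumf1 was lost without WT replicate 3 or PS19 replicate 4 and without the filter (adjusted p = 0.051).

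Markers of microglia rose in the same libraries. The summed level of 8 microglia markers at 9 months was 285 (263 to 301) CPM in WT (mean, with lowest and highest) and 630.4 (572 to 735) CPM in PS19, and 8 of 8 rose, Cx3cr1 from 51.6 to 108 CPM and C1qa from 37.1 to 174 CPM. Astrocyte markers summed to 5372 (5034 to 5823) and 8755 (8098 to 9317) CPM, with 5 of 8 risen, oligodendrocyte markers to 5317 (4593 to 5783) and 6437 (5727 to 7419), with 4 of 8 risen, and granule neuron markers to 344 (303 to 376) and 234 (223 to 259.8), with 5 of 7 fallen. No marker of these 4 lists was at 0. In bulk tissue more cells of a type and more RNA per cell cannot be told apart, and the part of either in these increases was not tested. Counting was unstranded, so the values of Grn, Lamp1, Sort1, Ppt1, Sgsh, Arsa, Arsb, Idua, Acp2, Acp5, Cln3 and Ostm1, whose exons overlap those of another gene, may hold reads of that gene.

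At 4 months none of the 38 genes separated PS19 from WT libraries by edgeR, against 0.0186% of all genes. DESeq2 also called 0, and 2 genes reached an unadjusted p under 0.05 (3.69% of all genes did), Sgsh at a log2 difference of 0.30 and Tmem106b at 0.08. The median of the 38 was -0.01, and 18 lay above 0, against 48.5% of all genes. Laptm5 read 31.9 (lowest), 34.3 (median) and 41.3 (highest) CPM in the 6 WT and 32.1 (lowest), 34.4 (median) and 36.7 (highest) CPM in the 6 PS19 libraries. The groups lay on top of each other, and the 95% interval of the log2 difference was -0.15 to 0.11. Cd68 read 4.94 (lowest), 6.1 (median) and 9.42 (highest) CPM in WT and 4.47 (lowest), 6.12 (median) and 7.0 (highest) CPM in PS19 libraries, also with overlap and an interval of -0.41 to 0.18. Grn read 44.9 (lowest), 53.4 (median) and 57.4 (highest) CPM in WT and 48 (lowest), 52.1 (median) and 54 (highest) CPM in PS19 libraries. Its interval was -0.17 to 0.10. For Man2b1 the values were 40.3 (lowest), 42.5 (median) and 49.1 (highest) CPM in WT and 33.8 (lowest), 41.1 (median) and 43.6 (highest) CPM in PS19, with an interval of -0.28 to 0.02. Each of these intervals lies below the log2 difference found at 9 months. The microglia markers summed to 262 (224 to 302) CPM in WT and 249.7 (234 to 262) CPM in PS19 libraries at 4 months.

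The difference between the 2 ages was tested directly. For 10 of the 38 genes the PS19 effect was larger at 9 than at 4 months and for none smaller, against 4.37% and 1.04% of all genes (5.41% together). On the log2 scale the effect was larger by 2.06 for Cd68, 1.5 for Laptm5, 1.3 for Man2b1 and 1.12 for Grn, with edgeR adjusted p of 9.4e-07, 2.8e-09, 7.0e-08 and 1.3e-07. For Gusb, Lgmn and Manba it was larger by 0.96 (adjusted p = 0.00022), 0.66 (adjusted p = 0.00013) and 0.61 (adjusted p = 0.0091). For the 3 membrane glycoproteins Lamp2, Lamp1 and Scarb2 it was larger by 0.56 (adjusted p = 0.019), 0.42 (adjusted p = 7.7e-05) and 0.29 (adjusted p = 0.015). Tpp1, Naglu and Laptm4a, which rose at 9 months, did not pass here, at 0.33 (adjusted p = 0.081), 0.56 (adjusted p = 0.088) and 0.33 (adjusted p = 0.051). Without PS19 replicate 5 at 9 months Lamp2 and Scarb2 were lost and 8 genes remained called.

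**Figure D3:**
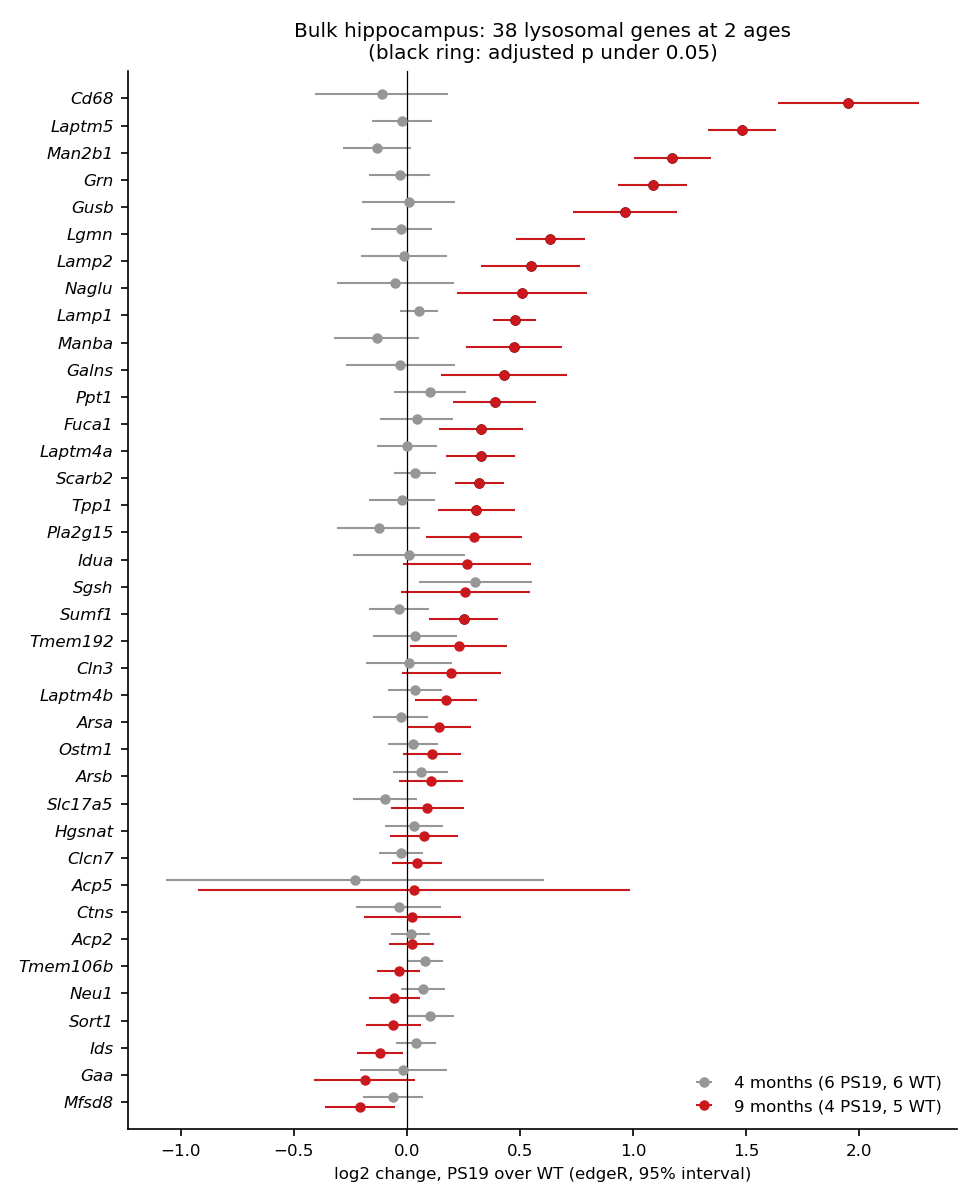
Log2 difference between PS19 and WT bulk hippocampus for the 38 genes at 4 months and at 9 months (fitted values with 95% intervals). At 9 months 17 genes pass the test, led by Cd68 at 1.95, and at 4 months none does.

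In the nuclei, the effect of the tau transgene was taken as the mean of PS19 minus WT and CLEAR_PS19 minus CLEAR. Over all nuclei of a library 6 of the 38 genes rose and 1 fell, against 4.12% and 2.66% of 22080 genes (6.78% together); the median of the 38 was 0.06. The risen genes were the microglial Cd68, Laptm5, Lgmn and Gusb, with Lamp2 and Tmem192, and the fallen gene was Sort1. The proportion of microglia moved with the transgene: they were 4.88% ± 0.638 (SD, n = 3) of named nuclei in WT, 12.8% ± 3.05 (SD, n = 3) in PS19, 5.76% ± 0.886 (SD, n = 4) in CLEAR and 8.77% ± 2.16 (SD, n = 4) in CLEAR_PS19 libraries. Microglia markers summed to 222 (180.2 to 270.3), 349 (318 to 382), 243 (192 to 261) and 292 (259 to 330.4) CPM over all nuclei, with 6 of 8 risen and none at 0. Their part in the increases was not tested over all nuclei, and the values within microglia follow.

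Cd68 read 1.63, 1.14 and 1.41 CPM in WT and 4.06, 6.35 and 2.45 CPM in PS19 libraries. On the CLEAR background it read 1.97, 2.55, 1.43 and 1.45 CPM without and 4.16, 4.0, 4.3 and 2.04 CPM with the transgene. The PS19 libraries were all above WT, CLEAR_PS19 replicate 4 overlapped CLEAR, and the log2 difference was 1.24 ± 0.19 (SE), with an edgeR adjusted p of 0.0024. Laptm5 read 3.24, 2.53 and 3.2 (WT), 6.18, 11.8 and 5.65 (PS19), 3.82, 3.65, 2.82 and 4.85 (CLEAR) and 6.28, 5.89, 6.12 and 4.45 CPM (CLEAR_PS19). PS19 replicate 2 was by far the highest, and the log2 difference was 0.99 ± 0.18 (SE), with an edgeR adjusted p of 0.0066. Lgmn read 23, 23.9 and 23.9 (WT), 34, 51.8 and 31.8 (PS19), 28.5, 27.8, 23.4 and 26 (CLEAR) and 37.5, 37.1, 40.2 and 28.5 CPM (CLEAR_PS19). Its log2 difference was 0.57 ± 0.10 (SE), with an edgeR adjusted p of 0.0048. Gusb rose by 0.42 (adjusted p = 0.0093), Lamp2 by 0.29 (adjusted p = 0.015) and Tmem192 by 0.23 (adjusted p = 0.035) on the log2 scale. Sort1 read 179, 191 and 179 (WT), 146, 132 and 154 (PS19), 165, 159.8, 176 and 189 (CLEAR) and 156, 156, 161 and 165 CPM (CLEAR_PS19). It fell by 0.23 on the log2 scale, with an edgeR adjusted p of 0.015. Grn, Scarb2 and Pla2g15 missed the threshold, at 0.49 (adjusted p = 0.073), 0.29 (adjusted p = 0.066) and 0.24 (adjusted p = 0.092).

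In WT and PS19 libraries alone 5 of the 38 rose and 1 fell, against 4.08% and 2.06% of all genes (6.14% together), and on the CLEAR background none passed by edgeR, against 0.0543%, with 4 at an unadjusted p under 0.05 (7.04% of all genes), while DESeq2 called 1, Cd68. The difference between backgrounds was itself tested, and none of the 38 passed, as none of all genes did (0.0%). DESeq2 called 0, and 3 members fell under an unadjusted p of 0.05 (7.85% of all genes). Those were Laptm5, Gusb and Sort1, at log2 values of -0.81 (adjusted p = 0.62), -0.42 (adjusted p = 0.57) and 0.24 (adjusted p = 0.58). Tmem192 was lost without WT replicate 1 or 2, PS19 replicate 2 or 3, CLEAR replicate 1 or 4, or CLEAR_PS19 replicate 1 or 2, and Sort1 without WT replicate 2 or CLEAR_PS19 replicate 1. Summing each close pair left 4 genes called (3.94% of all genes) and lost Lamp2 (adjusted p = 0.0502), Tmem192 and Sort1. Leaving out set 3 also left 4 (4.95% of all genes) and lost Laptm5 (adjusted p = 0.077), Lamp2 (adjusted p = 0.082) and Tmem192. Lamp2 and Tmem192 were also lost without the sex covariate (adjusted p = 0.064 and 0.073), and Lamp2, Lgmn and Tmem192 with nuclei of at least 1000 genes (adjusted p = 0.055, 0.063 and 0.079). With same-numbered libraries of one background as a block, 11 members were called (11.5% of all genes), the 7 above with Grn (adjusted p = 0.014), Lamp1 (adjusted p = 0.032), Scarb2 (adjusted p = 0.038) and, lower, Mfsd8 (adjusted p = 0.027). With the library set as a block 11 were called (13.2% of all genes).

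Within microglia Laptm5, Cd68, Grn, Man2b1 and Gusb, which had the largest increases in bulk, were not called by edgeR without a block. Of 36 members tested (Sgsh and Acp5 were too low) 4 rose and 1 fell with the tau transgene, against 6.8% and 5.24% of 10280 genes (12% together), a share near the background. The median was 0.18, against -0.02 over all genes, and 24 lay above 0, against 46.9% of all genes. Lamp2, Lamp1, Manba and Clcn7 rose and Sort1 fell. With the library set as a block 10 were called (16.6% of all genes). In WT and PS19 libraries alone 3 were called, Manba, Lamp2 and Sort1 (9.67% of all genes). On the CLEAR background none passed by edgeR or DESeq2, against 0.691% of all genes by edgeR, with 6 at an unadjusted p under 0.05 (10.7%).

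**Figure D4:**
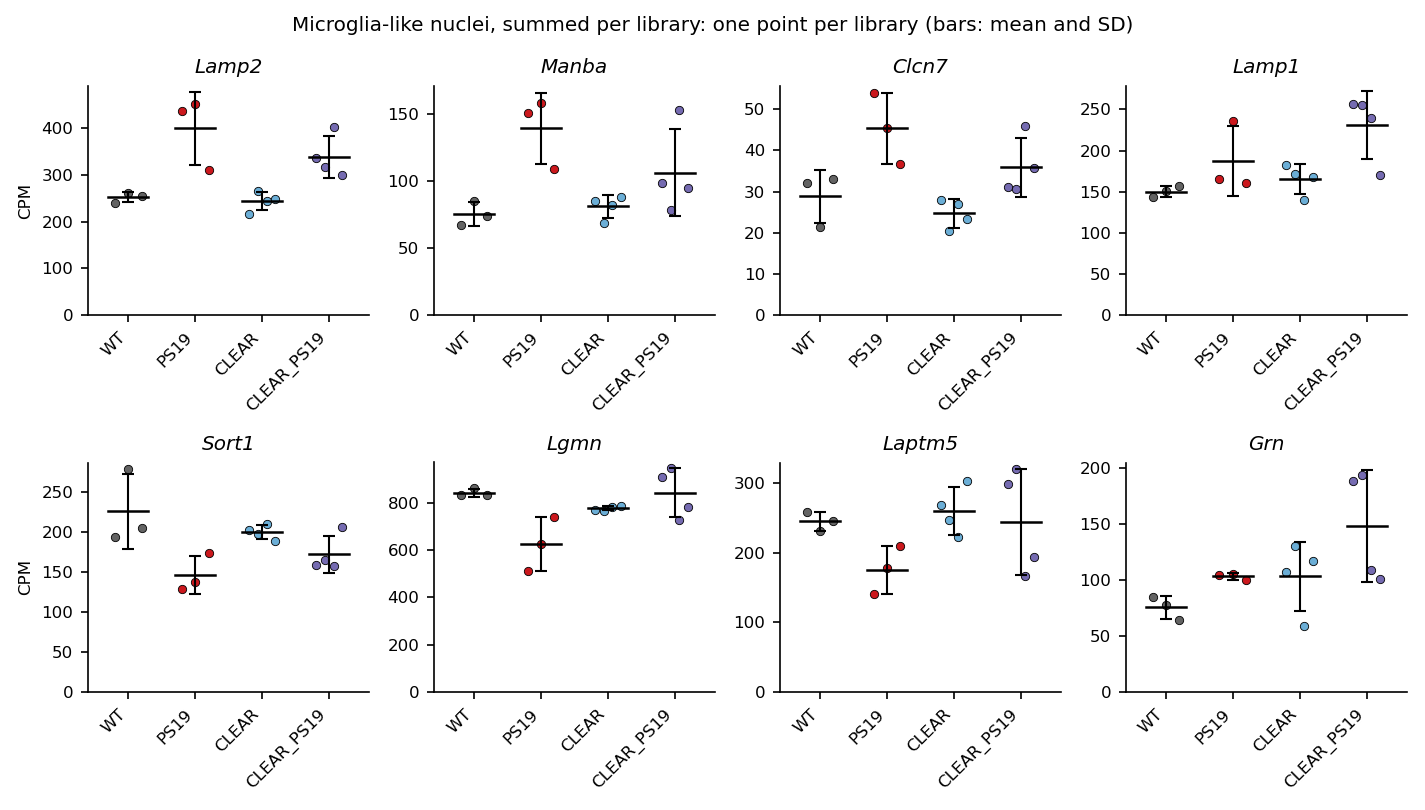
Level in CPM in microglia nuclei summed per library, 1 point per library, with 3 libraries each of WT and PS19 and 4 each of CLEAR and CLEAR_PS19. Lamp2, Manba and Clcn7 are higher and Sort1 lower in the groups with the tau transgene, while Laptm5 and Lgmn are lower in PS19 than in WT libraries.

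Lamp2, the receptor of chaperone-mediated autophagy in one of its isoforms, read 240.0, 261 and 256 CPM in WT and 437, 451 and 310.5 CPM in PS19 microglia. On the CLEAR background it read 217, 265, 244 and 248 CPM without and 335, 316, 402 and 299.7 CPM with the transgene. Neither pair of groups overlapped, and the log2 difference was 0.56 ± 0.10 (SE), with an edgeR adjusted p of 0.0013. Manba read 67, 85.3 and 74.2 (WT), 151, 158 and 109 (PS19), 85.4, 68.9, 82.4 and 88.3 (CLEAR) and 98.7, 78.2, 153 and 94.9 CPM (CLEAR_PS19). WT and PS19 did not overlap, CLEAR and CLEAR_PS19 did, and the log2 difference was 0.64 ± 0.15 (SE), with an edgeR adjusted p of 0.0089. Clcn7 read 32.2, 21.3 and 33 (WT), 53.9, 45.4 and 36.6 (PS19), 28, 20.4, 26.9 and 23.4 (CLEAR) and 31.1, 30.5, 46 and 35.7 CPM (CLEAR_PS19). The transgenic libraries were higher on both backgrounds, by 0.60 ± 0.17 (SE), with an edgeR adjusted p of 0.024, although Clcn7 in bulk stood at 0.04.

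Lamp1 read 143, 151 and 157 (WT), 166, 236 and 161 (PS19), 183, 172, 139 and 167 (CLEAR) and 257, 256, 240.1 and 170.5 CPM (CLEAR_PS19) in microglia. CLEAR_PS19 replicate 4 lay among the CLEAR values, and the log2 difference was 0.39 ± 0.11 (SE), with an edgeR adjusted p of 0.033. Sort1 read 193, 279 and 204 (WT), 128, 138 and 173 (PS19), 203, 198, 209 and 188 (CLEAR) and 158, 165, 158 and 206 CPM (CLEAR_PS19). It fell by 0.43 on the log2 scale (edgeR adjusted p = 0.013), with CLEAR_PS19 replicate 4 as high as the CLEAR libraries. The call of Lamp1 was lost without WT replicate 1 or 2, PS19 replicate 2, CLEAR replicate 2, or CLEAR_PS19 replicate 1 or 2, that of Clcn7 without WT replicate 2, PS19 replicate 1 or CLEAR replicate 2, and that of Sort1 without PS19 replicate 1; 3 members stayed called without WT replicate 2, PS19 replicate 1 or CLEAR replicate 2. Leaving out set 3 lost Lamp1 (adjusted p = 0.14) and Sort1 (adjusted p = 0.10), and summing the close pairs lost Lamp1 (adjusted p = 0.084). Whether the libraries of a close pair came from separate animals is not given in the sources used here.

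Laptm5, at a log2 difference of 1.48 in bulk, read 259, 231 and 246 CPM in WT and 140.1, 177 and 209 CPM in PS19 microglia. The PS19 libraries were the lower ones, the CLEAR groups overlapped, and the combined log2 difference was -0.29 (adjusted p = 0.26). Lgmn read 833, 862 and 833 CPM in WT and 509.9, 627 and 742 CPM in PS19 microglia, again lower with the transgene, with 772, 768, 785 and 789 in CLEAR and 909.5, 949.6, 729 and 782 CPM in CLEAR_PS19. Its combined log2 difference was -0.16 (adjusted p = 0.35). Cd68 read 42.9, 63.9 and 51.1 (WT), 62.3, 80.4 and 55.8 (PS19), 57.4, 108, 46 and 53.2 (CLEAR) and 147, 154, 89.5 and 46.7 CPM (CLEAR_PS19) in microglia. The groups overlapped, and the log2 difference was 0.50 (adjusted p = 0.17). Grn read 84.5, 77.1 and 64.3 CPM in WT and 104, 105 and 99.9 CPM in PS19 microglia, without overlap, and 107, 130.1, 58.6 and 117 in CLEAR and 188, 194, 109 and 100.4 CPM in CLEAR_PS19, with overlap. Its log2 difference was 0.47 (adjusted p = 0.11). The log2 differences of Cd68 and Grn in microglia were thus larger than that of Lamp1, which was called. With the block of same-numbered libraries 7 members were called (14.4% of all genes), the 5 above with Cd68 (adjusted p = 0.037) and Grn (adjusted p = 0.022). Man2b1 and Gusb stood at 0.09 (adjusted p = 0.81) and 0.28 (adjusted p = 0.073), and Galns at 0.61 (adjusted p = 0.053). The difference between the bulk and the nuclei effects was not tested, since the assays were fitted apart and count different RNA.

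The microglia class held mainly 2 clusters. Cluster 7 made up 85.3 to 96.8% of the microglia of a library in WT, 2.94%, 1.5% and 49.6% in the 3 PS19 libraries, 83.6 to 94.2% in CLEAR and 77.7%, 85.8%, 13.7% and 85.7% in the 4 CLEAR_PS19 libraries. Cluster 10 made up 3.17 to 7.85% in WT, 97.1%, 98.5% and 50.4% in PS19, 5.77 to 11.8% in CLEAR and 22.3%, 14.2%, 86.3% and 14.2% in CLEAR_PS19. The mean of cluster 7 in PS19 was 18%, and 2.22% without PS19 replicate 3, and that of cluster 10 in CLEAR_PS19 was 34.3%, and 16.9% without CLEAR_PS19 replicate 3. As a description of clusters built on the same nuclei, Lamp2 stood at 261 CPM in cluster 7 and 414 in cluster 10, Manba at 82.3 and 144, and Clcn7 at 27.4 and 45.9. Sort1 (197 and 136 CPM), Lgmn (849.9 and 611) and Laptm5 (266 and 167) went the other way. Cd68 (76.1 and 81.9 CPM) and Grn (112.4 and 112.4) were near equal in both. These values pool the nuclei of all libraries, so cluster and genotype cannot be told apart in them. The 8 microglia markers summed to 8625 (8370.4 to 8755) CPM in WT, 5598 (4753 to 6932) in PS19, 8287 (7948 to 8491) in CLEAR and 7653 (6211 to 8584) CPM in CLEAR_PS19 microglia, with 4 of 8 fallen and none at 0. Markers of border macrophages, a neighbouring phagocyte, summed to 13.9 (1.64 to 28), 67.3 (16.6 to 112), 13.1 (5.1 to 31.7) and 26.7 (4.73 to 49.9) CPM; 1 of the 6 was high enough to test and rose, and 3 were at 0 in WT. Their part in the changes was not tested.

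Outside microglia 1 member was called for the tau transgene by edgeR without a block. In oligodendrocytes 1 of 37 tested rose, Cd68, against 1.24% of 13102 genes (1.69% in either direction). It read 3.4, 1.83 and 1.97 (WT), 5.46, 5.87 and 3.24 (PS19), 2.31, 2.08, 2.39 and 1.34 (CLEAR) and 4.62, 5.27, 4.62 and 2.55 CPM (CLEAR_PS19) in oligodendrocytes. WT replicate 1 overlapped PS19, the CLEAR groups did not overlap, and the log2 difference was 1.03 ± 0.20 (SE), with an edgeR adjusted p of 0.017. Microglia markers in these oligodendrocyte sums also differed, at 47.8 (41.2 to 54.2) CPM in WT, 87.3 (81.4 to 90.7) in PS19, 46.9 (33.4 to 59.9) in CLEAR and 65.1 (59.6 to 74) in CLEAR_PS19, with 1 of the 5 high enough to test risen and none at 0; their part in the Cd68 value was not tested. The call of Cd68 was lost without WT replicate 2 or PS19 replicate 2, without set 3 (adjusted p = 0.11), with close pairs summed (adjusted p = 0.064) and without the sex covariate (adjusted p = 0.055). Without set 3 the called members were Arsb and Sort1 (4.52% of all genes), and without CLEAR replicate 2 they were Cd68 and Arsb. DESeq2 called 3 members in oligodendrocytes (3.32% of all genes), Cd68, Arsb and Sort1, and the fit with the library set as a block called 4 (7.41% of all genes), those 3 and Lamp2. Sort1 and Arsb came next, at -0.33 (adjusted p = 0.075) and -0.44 (adjusted p = 0.060). With the block of same-numbered libraries both were called beside Cd68 (5.67% of all genes), at adjusted p = 0.026 and 0.022.

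No member was called by edgeR in the other 5 classes without the block. Members that were not tested in a class fell below its count filter, so their change there is not known. Cd68 stood at 0.869 CPM in WT astrocytes and 1.14 CPM in WT OPC. In both classes it was higher in every PS19 than in every WT library, while CLEAR and CLEAR_PS19 libraries overlapped. In astrocytes 31 members were tested and 1 reached an unadjusted p under 0.05 (8.84% of all genes), with 0 called by DESeq2 and 1.03% of all genes called by edgeR. In OPC 31 were tested and 1 reached that p (6.14%), with 0 by DESeq2 and 0.45% of all genes called. Granule neurons had 36 tested, 7 at that p (12.4%) and 1 by DESeq2 (3.05% of all genes), with 1.29% of all genes called by edgeR. Other excitatory neurons had 37 tested, 6 at that p (8.5%) and 0 by DESeq2 (0.846%), with 0.13% of all genes called by edgeR. Inhibitory neurons had 34 tested, 0 at that p (4.3%) and 0 by DESeq2 (0.253%), with 0.0712% called by edgeR. In granule neurons Sort1 read 169, 191 and 186 CPM in WT and 151, 144 and 153 CPM in PS19 libraries, and its log2 difference over both backgrounds was -0.23 (adjusted p = 0.081). With the block of same-numbered libraries 2 members were called in granule neurons (3.87% of all genes), Sort1 lower (adjusted p = 0.033) and Lamp1 higher (adjusted p = 0.034), and none in the other 4 of these classes. The log2 difference of Sort1 in the other excitatory neurons was -0.17 (adjusted p = 0.45). Galns, highest in granule neurons, stood there at 0.18 (adjusted p = 0.64), and Ostm1, highest in astrocytes, at -0.03 (adjusted p = 0.98) in that class. Gaa and Laptm4b, highest in inhibitory neurons, stood there at 0.07 (adjusted p = 1.0) and -0.11 (adjusted p = 1.0).

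**Figure D5:**
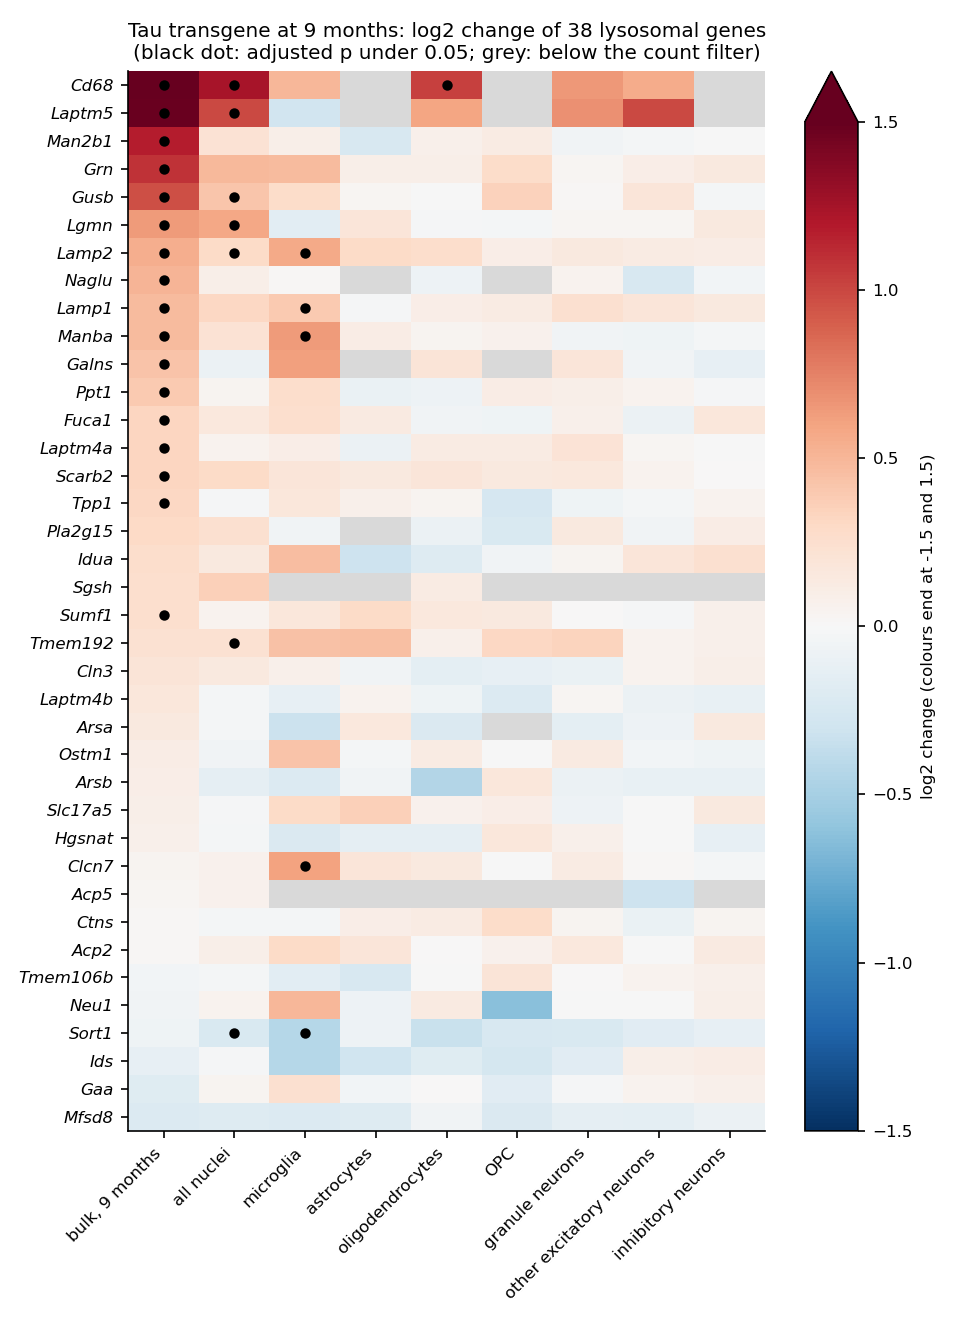
Log2 difference with the tau transgene for the 38 genes in 7 classes of nuclei and in all nuclei (color), with calls at an edgeR adjusted p under 0.05 marked (fit without the block). The marks are 7 in all nuclei, 5 in microglia, 1 in oligodendrocytes and none in the other classes.

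The second question is whether the CLEAR mutation at Atp6v1h moved the other lysosomal genes. By edgeR none of the 38 was called in all nuclei or in any of the 7 classes, taking the mean of CLEAR minus WT and CLEAR_PS19 minus PS19, and DESeq2 called 0 in each. Almost no other gene was called in this fit: the share of all genes was 0.00453% in all nuclei, 0.0% in microglia, 0.0% in astrocytes, 0.00763% in oligodendrocytes, 0.0% in OPC, 0.00588% in granule cells, 0.00519% in other excitatory and 0.00648% in inhibitory neurons. The calls depend on the fit. With replicate number as a block over all 4 groups 20 members were called over all nuclei (34.2% of all genes) and 5 to 15 in the 7 classes, and with the library set as a block none. Without CLEAR_PS19 replicate 3 Lamp1 and Tmem106b were called in oligodendrocytes. Without the filter on low counts Lamp1 was called there (1.77% of all genes). Without CLEAR replicate 3 Laptm4a was called in astrocytes. An unadjusted p under 0.05 was reached by 5 members over all nuclei (13.4% of all genes), 5 in microglia (11.2%), 4 in astrocytes (10.5%), 3 in oligodendrocytes (17.9%), 7 in OPC (11.4%), 5 in granule cells (13.8%), 4 in other excitatory (11.8%) and 3 in inhibitory neurons (11.5%). In microglia the smallest were those of Galns at -0.58 (adjusted p = 0.39), Grn at 0.48 (adjusted p = 0.40), Gusb at 0.24 (adjusted p = 0.41), Slc17a5 at -0.34 (adjusted p = 0.41) and Cd68 at 0.47 (adjusted p = 0.45). Over all nuclei they were Tmem106b at 0.16 (adjusted p = 0.36), Galns at -0.25 (adjusted p = 0.36), Lamp1 at 0.29 (adjusted p = 0.36), Manba at -0.21 (adjusted p = 0.37) and Neu1 at 0.24 (adjusted p = 0.37). Without set 3 no member was called by edgeR in all nuclei or in any class. An unadjusted p under 0.05 was then reached by 0 members over all nuclei, 1 in microglia, 2 in OPC and 1 in granule neurons. Inhibitory neurons had 3, as with all libraries, and astrocytes, oligodendrocytes and other excitatory neurons had 0. Those 5 values over all nuclei were then 0.12, -0.15, 0.10, -0.10 and 0.02, and Gusb and Slc17a5 in microglia stood at 0.18 and -0.10. Without set 3 the CLEAR groups keep only replicates 3 and 4. The share of all genes at an unadjusted p under 0.05 in that edgeR fit is not given here. Whether the lower counts are particular to the members thus cannot be told.

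Several of these values moved with set 3. Lamp1 over all nuclei read 43.4, 51.7 and 48.5 CPM in WT and 68.1, 71.7, 52.8 and 56.6 CPM in CLEAR libraries, and 51.8, 79.8 and 55.1 CPM in PS19 against 88, 88.4, 69.2 and 52.3 CPM in CLEAR_PS19. Replicates 1 and 2 of the CLEAR groups, which form set 3, were the high ones. Its log2 difference was 0.29 with all libraries, 0.10 with the library set as a block and 0.10 without set 3; in oligodendrocytes these were 0.57, 0.11 and 0.11. Grn in microglia, whose values per library are given above, went from 0.48 to 0.10 and 0.12, and Cd68 from 0.47 to 0.04 and 0.06. Galns in microglia read 13.4, 16.4 and 14.8 (WT), 29.2, 25.3 and 19.98 (PS19), 8.0, 10.2, 14.3 and 11.7 (CLEAR) and 16.2, 12.6, 18.9 and 12.4 CPM (CLEAR_PS19), and its log2 difference was -0.58, -0.38 and -0.35 under the same 3 fits. For Lamp2 and Laptm5 in microglia the 95% intervals of the CLEAR effect were -0.36 to 0.05 and -0.02 to 0.61. Sumf1, Cln3 and Clcn7, the genes with TCACGTGA, stood at -0.10 (adjusted p = 0.81), 0.04 (adjusted p = 0.90) and -0.29 (adjusted p = 0.48) in microglia.

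Whether the tau effect differed between the CLEAR and the WT background was tested in every class, and no member passed by edgeR or DESeq2. Without the filter on low counts 1 member, Arsb, passed in microglia by edgeR, and the share of all genes in that fit is not given here. With the filter 0.0% of all genes were called over all nuclei and 0.0% in each of the 7 classes. The members at an unadjusted p under 0.05 numbered 3 over all nuclei, 2 in microglia (7.19% of all genes), 0 in astrocytes (4.25%), 0 in oligodendrocytes (3.47%), 1 in OPC (3.22%), 0 in granule cells (4.08%), 2 in other excitatory (6.37%) and 1 in inhibitory neurons (3.28%). In microglia those 2 were Arsb at 2.06 (adjusted p = 0.51) and Lgmn at 0.55 (adjusted p = 0.54). Lgmn was lower in PS19 than in WT, -0.43, and near equal in CLEAR_PS19 and CLEAR, 0.12 on the log2 scale.

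The neighbouring lysosomal gene groups, taken from lists chosen by function, moved as follows. In bulk at 9 months, where 7.68% of all genes rose and 5.09% fell, 9 of 11 cathepsins rose, among them Ctss from 54.3 to 205 CPM and Ctsb by 0.68 (adjusted p = 5.0e-09) on the log2 scale. Of 11 sphingolipid hydrolases and activators 5 rose. Of 18 V-ATPase genes tested 2 rose and 1 fell, and of 3 MiT/TFE factors Tfeb rose, by 0.57 (adjusted p = 0.00090). In microglia nuclei with the tau transgene, where 6.8% of all genes rose and 5.24% fell, 5 of 10 cathepsins rose, 2 of 9 sphingolipid genes, 5 of 19 V-ATPase genes with 1 fallen, and 1 of 3 MiT/TFE factors, Mitf.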

How the data were processed

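Gene counts of 21 bulk libraries and UMI matrices of 14 nuclei libraries of mouse hippocampus were used as the authors deposited them, as raw counts. Per the file headers, bulk reads were counted by featureCounts 2.0.0 without strand and the nuclei by Cell Ranger 5.0.1; the submitters' processing notes also name cutadapt, STAR, DESeq2, Seurat and mm10. Whether intronic reads were counted in the nuclei is not given in the sources used here. Groups came from the sample labels. Nuclei with at least 300 genes and under 5% mitochondrial counts were kept (144884 of 144991). Then the 12562 nuclei with the highest Scrublet doublet scores within their libraries were removed. Their share was preset at 0.8% per 1000 kept nuclei, so the 6.11 to 13.5% of a library follow from its size. The remaining 132322 nuclei were clustered (scanpy 1.11.5, 2000 variable genes, Leiden resolution 1.0) and named from marker lists. Lists for meningeal fibroblasts and premyelinating oligodendrocytes were added after the clusters were seen. Clusters with leading genes of these added lists were left without a name. Libraries of one assay shared at most 56 cell barcodes (0.55%). Counts were summed per library and class (at least 20 nuclei) and tested with edgeR 4.0.16 (quasi-likelihood, TMM, filterByExpr), with 4 groups per fit, sex as a covariate in nuclei, and Benjamini-Hochberg adjustment over all tested genes; the threshold was an adjusted p of 0.05. Bulk levels per kb use the length of the merged exons of each gene in the GENCODE mouse annotation. Alternatives were DESeq2 1.42.0, RLE factors, no filter, a replicate block, no sex covariate, nuclei with at least 1000 genes, single backgrounds and each library left out; after seeing the data, library sets, close pairs summed and bulk libraries with Ttr of at least 1000 CPM were added. The labels do not say that replicate numbers pair libraries. In granule neurons, deviations of same-numbered libraries of one background (WT with PS19, CLEAR with CLEAR_PS19) correlated at 0.26 to 0.61, over 0.1 in 7 of 7 pairs, but across backgrounds in 5 of 12, and such pairs share sex and library set. So the tau effect was also fitted with these 7 pairs as a block, added after seeing the data.

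Full values were given for the 10 members with the smallest p in bulk at 9 months. They were also given for members called in nuclei without a block, except Gusb, Lamp2 and Tmem192 over all nuclei. Other gene lists have counts and up to 4 examples. The 38 genes, the lists and the tests were chosen with earlier results of these data known. Scripts were tested on simulated counts. Of genes given a log2 change of 0.5, the microglia fit called 12 of 94 in the right direction and the bulk fit 50 of 100. At a log2 change of 1 these were 71 of 96 and 79 of 100. A change near 0.5 in microglia was thus mostly missed in the simulation.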

Additional observations from a re-analysis of the deposited data

Results flagged for a closer look

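In 6 of 66 groups of 4 to 10 libraries examined, 1 library lay far from the others; chance alone gives this in about 1 in 20 groups. In bulk hippocampus Laptm5 read 112 CPM in PS19 replicate 5 at 9 months, with the others at 94.2 to 94.7, and 41.3 CPM in WT replicate 4 at 4 months, with the others at 31.9 to 35.4. The same WT replicate 4 had the highest Cd68, 9.42 CPM against 4.94 to 6.3. Man2b1 was lowest in WT replicate 3 at 9 months, 39.7 CPM against 49.8 to 52.1. In nuclei, the female CLEAR_PS19 replicate 4 stood apart from its group for 2 genes: Cd68 over all nuclei read 2.04 CPM against 4.0 to 4.3, and Sort1 in microglia 206 CPM against 158 to 165.

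The PS19 effect differed between 9 and 4 months by the test of that difference for 10 members. On the log2 scale the effect at 9 months was larger by 2.06 for Cd68, 1.5 for Laptm5, 1.3 for Man2b1, 1.12 for Grn, 0.96 for Gusb, 0.66 for Lgmn, 0.61 for Manba, 0.56 for Lamp2, 0.42 for Lamp1 and 0.29 for Scarb2. No member had a smaller effect at 9 months that passed the test.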

How the results depend on the processing

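Of 1014 values of called members under alternatives, 957 kept their direction and their side of the threshold, 57 fell short of it and none changed direction. Most of these alternatives left out a single library. For the bulk effect at 9 months they include leaving out libraries of 4 months, which that effect does not compare. The members were those the main fit called, so these totals are a description. Of 679 counts of called members, 41 moved by over 1.5 times. Left-out libraries gave 12 to 18 members in bulk at 9 months, 0 at 4 months and 8 to 13 for the difference between ages; with the tau transgene they gave 5 to 8 in all nuclei, 3 to 7 in microglia and 0 to 2 in oligodendrocytes, and for the CLEAR mutation 0 to 1 in astrocytes (1 without CLEAR replicate 3) and 0 to 2 in oligodendrocytes (2 without CLEAR_PS19 replicate 3). The shares of all genes called in these left-out fits are not given here. The tau counts moved as follows. In all nuclei, 7 (6.78% of all genes) became 4 with nuclei of at least 1000 genes (3.52%). The count was 4 with close pairs summed (3.94%) and 4 without set 3 (4.95%). It was 11 with the library set as a block (13.2%) and 0 for CLEAR_PS19 versus CLEAR only (0.0543%). In microglia, 5 became 10 with the library set as a block (16.6%), 3 for PS19 versus WT only and 0 for CLEAR_PS19 versus CLEAR only. In oligodendrocytes, 1 (1.69%) became 3 with DESeq2 (3.32%), 4 with the library set as a block (7.41%) and 2 without set 3 (Arsb and Sort1, 4.52%). It became 0 without the sex covariate (0.847%), with close pairs summed (1.01%) and for either single background. In granule neurons, 0 became 1 with DESeq2 (3.05%) and 1 with the library set as a block (4.06%). Without the low-count filter 1 member passed for the interaction in microglia (share of all genes not given here) and 1 for the CLEAR mutation in oligodendrocytes (1.77%). The causes were not tested.

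Replicate numbers did not pair the bulk libraries: deviations of same-numbered libraries correlated at -0.29 to 0.32 (over 0.1 in 4 of 10 pairs), and 7 of 20 correlated best with their own number, against 11 of 14 in nuclei. With the replicate block, the bulk counts were 16 at 9 months (13.2% of all genes) and 11 between ages (5.57%). With the replicate block within each background, the tau counts were 11 in all nuclei, 7 in microglia, 3 in oligodendrocytes and 2 in granule neurons, and no member passed for the interaction; no call of the fit without it was lost. With numbers as a block over all 4 groups, which also joins libraries across backgrounds, they were 10 (11.5% of all genes), 8 (15.2%), 4 (6.39%) and 2 (3.77%). The CLEAR counts with that replicate block, each beside the share of all genes called, were 20 in all nuclei (34.2%), 6 in microglia (16.8%), 5 in astrocytes (13.9%), 12 in oligodendrocytes (41.6%), 9 in OPC (17.3%), 12 in granule (29.4%), 15 in other excitatory (29.0%) and 7 in inhibitory neurons (24.5%); numbers 1 and 2 of the CLEAR groups are the libraries of set 3.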

Other observations

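Arsb in microglia varied more between libraries than between groups. It read 1088, 535 and 1151 (WT), 324, 311 and 599 (PS19), 279, 365, 420.0 and 1106 (CLEAR) and 299, 261, 1573 and 1445 CPM (CLEAR_PS19), so each of WT, CLEAR and CLEAR_PS19 held both low and high libraries. The libraries of set 3 were the lowest of CLEAR and CLEAR_PS19. The female library was the highest in WT, PS19 and CLEAR, and male replicate 3 was the highest in CLEAR_PS19. In oligodendrocytes of the same libraries Arsb stayed between 36.6 and 62.5 CPM, and in granule neurons between 175 and 247. Exons of Arsb overlap those of the gene model Gm47210.

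Clcn7 and Ostm1, which encode the subunits of one exchanger, were highest in different classes. In WT astrocytes Ostm1 stood at 121 ± 37.8 CPM (SD, n = 3) and Clcn7 at 16.4 ± 4.29, the lowest Clcn7 value of the 7 classes, and in WT microglia they stood at 29.2 ± 3.29 and 28.8 ± 6.51. In microglia with the tau transgene Clcn7 rose by 0.60 (adjusted p = 0.024), and Ostm1 missed the threshold at 0.42 (adjusted p = 0.068) on the log2 scale by edgeR.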
